A study of Mus musculus with 143 samples.

Results

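The 30 genes described here are the enzymes, regulators and carriers with which a cell makes sterols and fatty acids. They were chosen by name as a set of mouse symbols, with results of these data already known, and all 30 were found among the 54232 gene identifiers of the deposited table. They fall into 3 branches. The sterol enzymes are 18 genes that carry acetyl-CoA to cholesterol. The sterol regulators and transport genes are 6, and the fatty acid enzymes are 6. A sterol gene was known beforehand to be lower in muDX400-treated MC38 tumours, so the muDX400 values of MC38 are given as a description only. Counts past a threshold there stand beside the share of all genes and are not read as tests.

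The series covers 11 syngeneic mouse models, each a mouse tumour line implanted under the skin of the flank, and total RNA of each tumour was sequenced (33 baseline, 55 isotype and 55 muDX400 libraries). Each model gave 3 untreated baseline tumours, 5 tumours after the mouse IgG1 isotype control and 5 after muDX400, an antibody against the T cell checkpoint receptor PD-1. Mice with tumours received antibody on days 11 and 15 counted from implantation. Their tumours were taken on day 19, which is 8 days from the first dose. The labels class CM3, MBT2 and MC38 as High responders to anti-PD-1, CT26, EMT6, MB49 and RENCA as Partial, and 4T1, B16F10, LL2 and TC1 as Resistant. Each model is 1 cell line. Host strain, sex and age are not stated in the labels used here.

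Sterol synthesis begins when Acat2 and Hmgcs1 join acetyl-CoA units. Mvk, Pmvk and Mvd then process mevalonate, Idi1 and Fdps build isoprenoid chains, and Fdft1 and Sqle make squalene and its epoxide. Lss closes the ring, and Cyp51, Tm7sf2, Msmo1, Nsdhl, Hsd17b7, Ebp, Sc5d and Dhcr7 trim the product towards cholesterol. Srebf2 and Srebf1 encode membrane-bound transcription factors that are released when sterol is scarce. Scap escorts them to the Golgi apparatus, Insig1 and Insig2 hold them back, and Stard4 carries cholesterol between membranes. In the fatty acid branch Acly supplies acetyl-CoA, Acaca makes malonyl-CoA, Fasn builds palmitate, Elovl6 lengthens it, and Scd1 and Scd2 introduce a double bond. Adipose tissue is rich in fatty acid synthesis, and subcutaneous tumours grow beside it.

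Promoter sequences are shown for 4 sterol enzymes and 2 fatty acid enzymes, to mark where they held a CCAAT box, the motif bound by the factor NF-Y. Each is the 250 bases before the RefSeq transcription start in GRCm38.p6, read 5′ to 3′ on the strand of the gene and outside every annotated exon of that gene. Capitals mark CCAAT on either strand (ATTGG on the other) and TCACNCCAC, a core of the sterol response element. Hmgcs1 (chr13:119690101-119690350, plus strand), Mvk (chr5:114444019-114444268, plus), Mvd (chr8:122443423-122443672, minus), Nsdhl (chrX:72918271-72918520, plus), Fasn (chr11:120824548-120824797, minus) and Acly (chr11:100528001-100528250, minus) read as follows.
Hmgcs1: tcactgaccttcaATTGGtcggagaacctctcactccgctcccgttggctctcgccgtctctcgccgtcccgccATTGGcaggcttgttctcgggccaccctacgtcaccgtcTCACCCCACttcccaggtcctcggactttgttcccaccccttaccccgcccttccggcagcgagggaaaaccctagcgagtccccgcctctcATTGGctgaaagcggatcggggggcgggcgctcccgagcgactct
Mvk: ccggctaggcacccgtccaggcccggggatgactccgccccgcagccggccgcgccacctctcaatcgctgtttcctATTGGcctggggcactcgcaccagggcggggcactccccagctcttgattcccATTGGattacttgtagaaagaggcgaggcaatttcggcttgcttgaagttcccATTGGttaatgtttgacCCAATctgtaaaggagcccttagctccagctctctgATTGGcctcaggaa
Mvd: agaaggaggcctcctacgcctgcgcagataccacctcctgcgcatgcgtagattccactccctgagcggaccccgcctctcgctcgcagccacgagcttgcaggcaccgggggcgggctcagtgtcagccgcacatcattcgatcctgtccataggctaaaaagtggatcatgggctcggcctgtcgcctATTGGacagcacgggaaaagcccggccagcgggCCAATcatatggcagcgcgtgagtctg
Nsdhl: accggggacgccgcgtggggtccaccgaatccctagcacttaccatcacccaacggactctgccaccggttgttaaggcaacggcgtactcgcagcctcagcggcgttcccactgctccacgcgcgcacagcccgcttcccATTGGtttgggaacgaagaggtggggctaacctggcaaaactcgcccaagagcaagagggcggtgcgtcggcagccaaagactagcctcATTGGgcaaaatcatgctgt
Fasn: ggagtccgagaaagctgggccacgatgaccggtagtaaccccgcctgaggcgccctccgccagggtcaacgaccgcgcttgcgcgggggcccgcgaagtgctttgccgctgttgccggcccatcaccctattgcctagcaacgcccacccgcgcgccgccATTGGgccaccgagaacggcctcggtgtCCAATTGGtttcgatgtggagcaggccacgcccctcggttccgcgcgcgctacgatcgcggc
Acly: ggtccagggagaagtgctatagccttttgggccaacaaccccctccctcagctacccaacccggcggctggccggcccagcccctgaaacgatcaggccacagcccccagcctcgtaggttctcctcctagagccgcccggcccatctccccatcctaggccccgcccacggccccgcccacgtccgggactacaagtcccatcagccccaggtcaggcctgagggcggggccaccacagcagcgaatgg
Hmgcs1 held 3 CCAAT boxes and 1 TCACNCCAC, which began 137 bases before the start. Mvk held 5 CCAAT boxes, Mvd 2, Nsdhl 2 and Fasn 3, of which the last pair in Fasn overlap on opposite strands. Acly held 0 in this stretch.

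Of the 30 members, 24 had a promoter in the RefSeq table. CCAAT was present within 250 bases before a start in 14 of 15 sterol enzymes (93.3%), in 4 of 5 regulators (80.0%) and in 1 of 4 fatty acid enzymes (25.0%). The same stretch held it in 37.5% of 27025 genes, and in 40.7% of the 10062 genes with a mean of at least 1 FPKM. Acat2 was the sterol enzyme without it. Of 12 other fatty acid genes outside the set, 10 held it (83.3%). The share among 4 enzymes therefore does not stand for fatty acid genes at large. TCACNCCAC was found in 1 of the 15 sterol enzymes, Hmgcs1, and in 1.22% of all genes. GGGCGG, the Sp1 box, was present in 14 of 15 sterol enzymes, and CACGTG, an E-box, in 3 of 15, against 35.4% and 6.86% of all genes. Among the 10062 genes with a mean of at least 1 FPKM these shares were 63.4% and 9.73%. A gene with several starts was counted if any of its stretches held the motif on either strand. These shares describe letters in a window and were not tested.

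FPKM, the unit of the table, is fragments scaled by transcript length and library depth, so levels of different genes are compared per length. Depth was read from the value that a single fragment adds to a low gene. It ran from 11.6 to 50.4 M fragments with a median of 21.1 M. B16F10, RENCA and TC1 had 9 deep baseline libraries of at least 36.7 M, and the other 134 libraries had at most 25.9 M. No member was listed at 0 in any library, the lowest value was 0.367 FPKM, and all 30 passed the filter on low values in every comparison. Sample numbers in the labels form blocks that separate baseline from isotype libraries in 9 models, so growth and block cannot be told apart there. In B16F10 and RENCA, which lack this split, every baseline library was deep and no isotype library was. Growth and depth cannot be told apart in them. The isotype library 4 of CM3 stood apart. Its mean log2(FPKM + 1) over 6 skeletal muscle genes was 7.23, against 0.43 to 0.47 in the other 4. Its 10 proliferation genes averaged 3.37 against 4.51 to 4.90. CM3 results that turn on library 4 are therefore given with and without it. By correlation with the mean of the others, isotype library 3 was as far from its group (r = 0.906, against 0.910 for library 4). The FPKM totals of isotype libraries 3 and 2 were 885333 and 784467, against 525381 to 528393 in the other CM3 isotype libraries.

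Levels under isotype treatment differed widely between models. The ratio of the highest to the lowest model mean ran from 1.92 for Fdft1 to 9.35 for Elovl6, with a median of 4.24 over the members and 5.02 over the 15420 genes tested. Of the variance of log2(FPKM + 1) over isotype libraries, a median of 85.5% lay between models for the members and 82.6% for all genes tested. No test of this difference was made. CM3 had the lowest mean for 9 of the 18 sterol enzymes, or 6 without its isotype library 4, and B16F10 the highest for 9.

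Sc5d, the desaturase late in the pathway, had the widest range among sterol enzymes. It was 2.64 to 4.99 FPKM in the 5 isotype libraries of CM3 and 30.1 to 40.3 in MB49, with means of 3.84 ± 1.03 and 35.6 ± 3.96 (SD, n = 5). MBT2 followed MB49 at 27.7 to 33.6, LL2 stood at 22.6 ± 3.78 and EMT6 at 21.9 ± 2.42. MB49 and MBT2 overlapped, as did LL2 and EMT6, while the highest LL2 library (26.3) lay below MBT2. Below them came MC38 (18.4 ± 1.15), 4T1 (15.4 ± 1.28), TC1 (15.2 ± 0.977), CT26 (12.8 ± 1.45), B16F10 (10.4 ± 4.04) and RENCA (9.64 ± 3.65). Without isotype library 4 the CM3 mean was 3.72 ± 1.15 (n = 4). The libraries of each of these models overlapped those of the next in order, except that the highest 4T1 library (16.7) lay below the lowest of MC38 (17.0).

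Stard4, the cholesterol carrier, had the widest range among regulators and carriers. Its isotype values were 1.80 to 3.03 FPKM in MBT2 and 14.0 to 20.8 in MC38, with means of 2.53 ± 0.478 and 16.9 ± 2.63 (SD, n = 5). RENCA was the other low model at 3.64 ± 0.903. The other 8 models had means from 7.23 in B16F10 to 14.5 in EMT6 and LL2. Elovl6, the elongase, was 0.420 to 3.56 FPKM in RENCA and 18.8 to 21.9 in EMT6, with means of 2.19 ± 1.39 and 20.4 ± 1.31. MBT2 (18.7 ± 3.92) overlapped EMT6, and B16F10 (4.61 ± 2.73) overlapped RENCA.

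The levels were then set against the response class. In a limma trend over the 11 model means, with class scored 0, 1 and 2 for Resistant, Partial and High, 0 of 13589 genes passed an adjusted p of 0.05 for the isotype level and 0 of 14009 for the baseline level (0% of genes in both). At an unadjusted p under 0.05 there were 640 genes (4.71%) and 431 genes (3.08%). Of the 30 members 0 reached that level under isotype, and at baseline Hmgcs1 did. Its slope was 0.60 ± 0.22 (SE) log2 units per class with a limma adjusted p of 1.000 over 11 models. Its isotype slope was 0.50 ± 0.28. With 11 models these tests made no call, which does not show that levels are alike between classes. They also made 0 calls without CM3.

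In MC38, 17 of 18 sterol enzymes and 6 of 6 regulators had a lower mean after muDX400. In the fatty acid branch Scd2 was lower and Scd1 higher. This contrast was used in choosing the members, so the counts past the threshold used elsewhere are given only beside their background, and nothing is read from them. They were 20 members lower against 12.7% of 12775 genes lower, and 21 in either direction against 27.3%. Median differences on the log2(FPKM + 1) scale, muDX400 minus isotype, were -0.81 for sterol enzymes, -0.44 for regulators and transport and 0.11 for fatty acid enzymes, beside -0.06 for all genes.

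Msmo1, which removes a methyl group from the sterol ring, was 99.0, 81.1, 139, 89.6 and 81.6 FPKM in the isotype libraries of MC38. After muDX400 it was 40.3, 24.7, 39.9, 38.8 and 54.3. The groups did not overlap, and the difference was -1.30 ± 0.20 (SE) log2 units. Idi1, the isomerase of the isoprenoid units, was 23.7 to 32.1 with a median of 29.9 under isotype and 6.50, 9.24, 14.4, 14.3 and 18.5 under muDX400. Every treated library lay below every control, with a difference of -1.19 ± 0.22. Ebp, the sterol isomerase, and Tm7sf2, a sterol reductase, had the smallest differences among the sterol enzymes, 0.09 ± 0.17 and -0.27 ± 0.11.

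Among the MC38 regulators, Srebf2 was 75.1, 70.2, 79.2, 75.0 and 71.9 FPKM under isotype and 48.7, 31.2, 43.4, 43.4 and 57.1 under muDX400. Stard4 was 15.3, 20.8, 14.0, 18.0 and 16.2 against 9.99, 7.06, 9.31, 9.37 and 11.1. Neither gene's groups overlapped, and their differences were -0.74 ± 0.13 and -0.79 ± 0.13. Srebf1, Scap and Insig2 differed by -0.11 ± 0.08, -0.11 ± 0.09 and -0.24 ± 0.09.

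The 2 desaturases of MC38 moved in opposite directions. Scd2 was 332, 383, 303, 361 and 300 FPKM under isotype and 255, 154, 216, 221 and 262 under muDX400, a difference of -0.62 ± 0.14 with no overlap. Scd1 was 61.9, 64.9, 59.1, 53.2 and 64.3 against 284, 245, 270, 162 and 48.8, a difference of 1.49 ± 0.40. Its groups overlapped because the muDX400 library 5 lay below all controls. That library also had the lowest adipocyte score, 2.32, against 5.09 to 5.70 in the other 4 treated tumours. The adipocyte score is the mean log2(FPKM + 1) of 11 markers such as Adipoq, Plin1 and Lep.

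Markers of other cells differed in the same MC38 comparison. Of 11 adipocyte genes 10 were tested and 9 were higher, with a median difference of 2.40, and their summed level was 30.3 to 196 FPKM under isotype and 77.1 to 1303 under muDX400. All 6 pan leukocyte and T cell genes were higher, summed 21.3 to 38.1 against 60.6 to 170 FPKM, as were 8 of 8 macrophage and 3 of 6 fibroblast genes, and 7 of 10 proliferation genes were lower. Of 4 sebaceous gland genes 0 passed the filter on low values. A gene could pass that filter through the 5 muDX400 libraries alone, so the counts of higher genes are not read as tests. Among all 12775 genes, 1864 were higher and 1618 lower. The part of these cell types in the result was not tested. In bulk tissue fewer cells of a type and less RNA per cell cannot be told apart.

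Of 11 other sterol genes in MC38, 4 were higher and 3 lower by the same threshold, with a median of 0.05, while 1864 of the 12775 genes were higher. Those higher act in lysosomal release or storage of cholesterol: Lipa (0.67 ± 0.18), Npc1 (0.51 ± 0.14), Npc2 (0.50 ± 0.17) and Soat1 (0.33 ± 0.09). Of 7 targets of the oxysterol receptor LXR, 6 were higher, among them Apoe (2.38 ± 0.35), Abcg1 (2.31 ± 0.26) and Abca1 (2.10 ± 0.32). Of 13 other fatty acid genes 11 were tested. Fads1, Fads2 and Acsl3 were lower and Thrsp was higher.

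**Figure D1:**
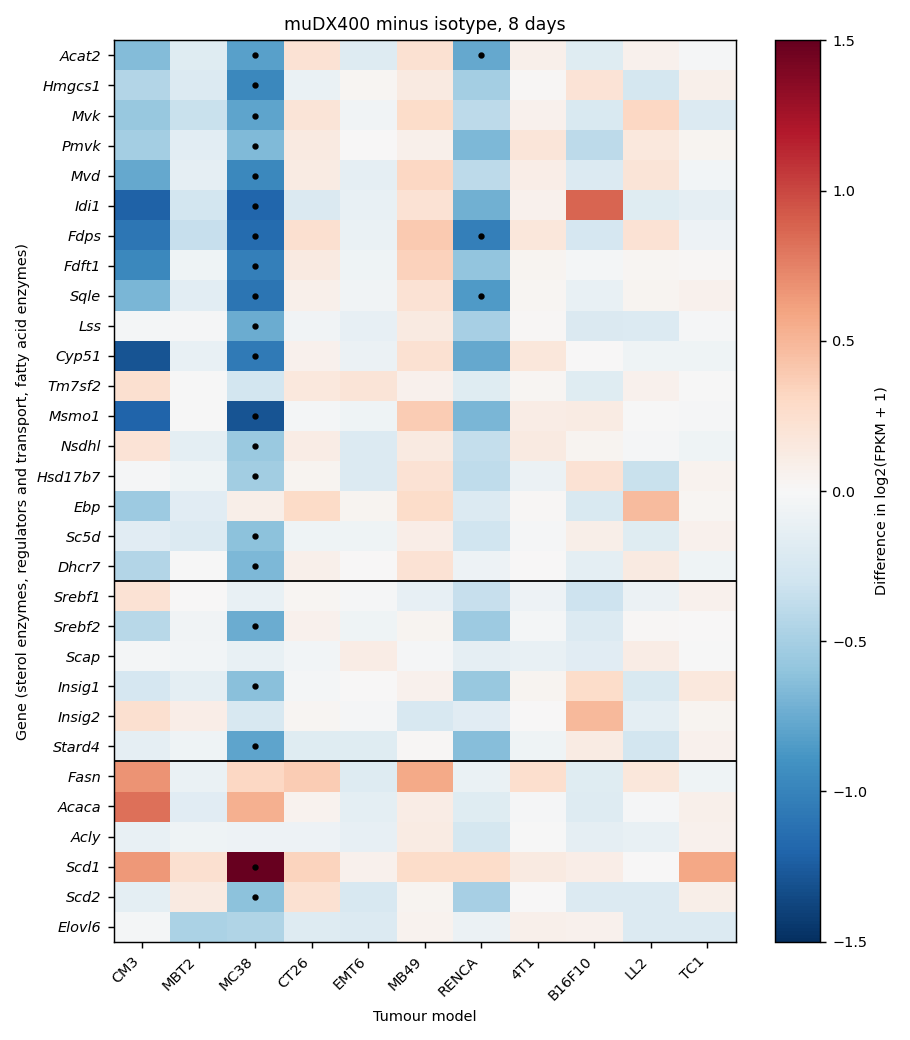
Difference in log2(FPKM + 1) between muDX400 and isotype tumours, by gene (rows, with lines between the 3 branches) and model (columns, ordered High, Partial, Resistant), n = 5 against 5. Dots mark an adjusted p under 0.05 and stand in the MC38 column, where they are no test, and the RENCA column, and Scd1 is above 0 in all 11 models.

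RENCA was the only model other than MC38 in which members passed with all libraries. Members were chosen with results of these data known, so this count is not an independent test. Acat2, Fdps and Sqle fell after muDX400, 3 of 30 members, while 0.284% of 12664 genes fell and 2.57% changed in either direction. All 18 sterol enzymes had a negative difference, with a median of -0.50, as did all 6 regulators, with a median of -0.45. The median over all genes was -0.06. The 6 fatty acid enzymes had a median of -0.14 and 0 of them passed.

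Fdps, which builds farnesyl diphosphate, was 192, 113, 140, 141 and 153 FPKM in the RENCA isotype libraries and 52.5, 83.3, 78.0, 62.5 and 85.7 after muDX400. The groups did not overlap, and the difference was -1.02 ± 0.17 (SE) log2 units with a limma adjusted p of 0.0131. Sqle, the epoxidase, was 26.9, 23.7, 31.0, 39.9 and 39.6 against 15.1, 22.4, 18.0, 15.0 and 15.7. Its groups lay apart by a small gap, with a difference of -0.85 ± 0.18 and a limma adjusted p of 0.0302. Acat2 was 19.1, 14.7, 16.9, 20.3 and 19.7 against 7.30, 11.6, 10.6, 10.7 and 11.4, a difference of -0.77 ± 0.16 with a limma adjusted p of 0.0290. Srebf2 was 54.6 ± 9.20 FPKM under isotype and 36.8 ± 4.52 under muDX400 (SD, n = 5) and did not pass, with a limma adjusted p of 0.0649, although its groups did not overlap.

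The RENCA count rested on few libraries. It was 1 without any of isotype libraries 3, 4 or 5 or muDX400 libraries 1 or 4, and 13 with a spread shared over all models. It was 0 with the library number as a replicate block and 1 with no filter on low values. The shares of all genes in these fits are not given here, so nothing is read from those counts. In RENCA the adipocyte list had 0 of 10 tested genes passing and a median of 0.67, and the proliferation list 0 of 10 and a median of -0.46. Isotype library 3 had a skeletal muscle score of 6.55 against 0.56 to 1.11 in the other 4, and isotype library 2 a leukocyte score of 4.73 against 1.92 to 2.87. Their part in the result was not tested.

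In CM3, 0 of 30 members and 0% of 12945 genes passed with all libraries, while 3441 genes (26.6%) and 14 members, 13 of them negative, had an unadjusted p under 0.05. Without isotype library 4, 13 of 18 sterol enzymes fell, with a median of -0.70 over the branch, and 11.3% of all genes fell. Cyp51, the sterol demethylase, was 15.7, 20.7, 31.0, 5.50 and 16.3 FPKM under isotype and 6.20, 4.22, 7.51, 5.54 and 6.20 under muDX400. Library 4 was the isotype library within the treated range, so leaving it out widened the gap. The highest Cyp51 value was in isotype library 3, which had a high FPKM total. The difference was -1.63 ± 0.21 (SE) log2 units with a limma adjusted p of 0.00165 without library 4. Msmo1 was 36.4, 46.6, 64.7, 12.9 and 35.0 against 16.7, 12.4, 15.5, 13.7 and 15.2, again with library 4 alone among the treated values. In these libraries 0 regulators and 0 fatty acid enzymes passed. The treated libraries 3 and 4 also had raised muscle scores, 5.14 and 3.74 against 0.37 to 0.61. The CM3 adipocyte list summed to 252 to 1008 FPKM under isotype and 645 to 2219 under muDX400. The medians of the proliferation, macrophage and fibroblast lists were -0.70, 1.22 and 1.14 with all libraries. The CM3 leukocyte list summed to 20.7 to 86.3 FPKM under isotype and 66.4 to 84.8 under muDX400, and the part of these lists was not tested.

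In the other 8 models 0 of 30 members passed. The share of all genes that passed was 0% in 4T1, B16F10, EMT6, LL2, MB49 and MBT2, 0.339% in CT26 and 0.0802% in TC1. At an unadjusted p under 0.05 the shares were 4.68% in 4T1, 3.07% in B16F10, 19.2% in CT26, 4.24% in EMT6, 16.6% in LL2, 10% in MB49, 28.7% in MBT2 and 6.55% in TC1. The members at that level were 1 in 4T1 and 1 in B16F10, 7 in CT26, 2 in EMT6, 6 in LL2, 9 in MB49, 3 in MBT2 and 2 in TC1. The sterol median was -0.16 in MBT2, with all 18 enzymes negative, and 0.22 in MB49, with all 18 positive. MBT2 had 4 members lower without muDX400 library 3. With all libraries the smallest limma adjusted p of any MBT2 gene was 0.0510, just above the threshold. The share of all genes without that library is not given here, so nothing is read from the count.

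Over the 10 models other than MC38, 4 members fell on average, while 3.29% of 16187 genes fell and 12.1% changed in either direction. They were Cyp51 (-0.19 ± 0.06, limma adjusted p 0.0228), Fdps (-0.19 ± 0.06, 0.0279), Acat2 (-0.14 ± 0.05, 0.0281) and Srebf2 (-0.12 ± 0.04, 0.0355). Each was negative in 6 of the 10 models. The count was 0 without CM3 and 0 without RENCA, so it rested on both. It was 9 without isotype library 4 of CM3, when 6.33% of all genes fell. In this mean 9 of 11 adipocyte genes and 5 of 6 leukocyte genes rose, and 8 of 10 proliferation genes fell. Their part was not tested.

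The size of the muDX400 difference itself varied between models. An F test over the 10 models other than MC38 passed for 10 of 18 sterol enzymes, for Srebf2 among regulators and for 0 of 6 fatty acid enzymes, 11 of 30 members in all, and for 18.7% of 16019 genes. Fdps had the smallest adjusted p among members, 1.20e-05 with limma, and its difference ran from -1.08 in CM3 and -1.02 in RENCA to 0.39 in MB49. Without CM3 as well, 8 members and 7.03% of 15681 genes passed, and Fdps kept an adjusted p of 4.05e-05. This test was added after the data had been seen.

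Scd1 was the member with a positive difference in all 11 models, from 0.01 in LL2 to 1.49 in MC38. The mean over the 10 models other than MC38 was 0.26 ± 0.11 (SE) with a limma adjusted p of 0.101. In RENCA the isotype values were 61.0, 111, 138, 93.2 and 168 FPKM and the muDX400 values 120, 81.9, 124, 384 and 78.8. The groups overlapped, and the library at 384 had the highest adipocyte score of its group, 5.52 against 1.56 to 4.15.

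**Figure D2:**
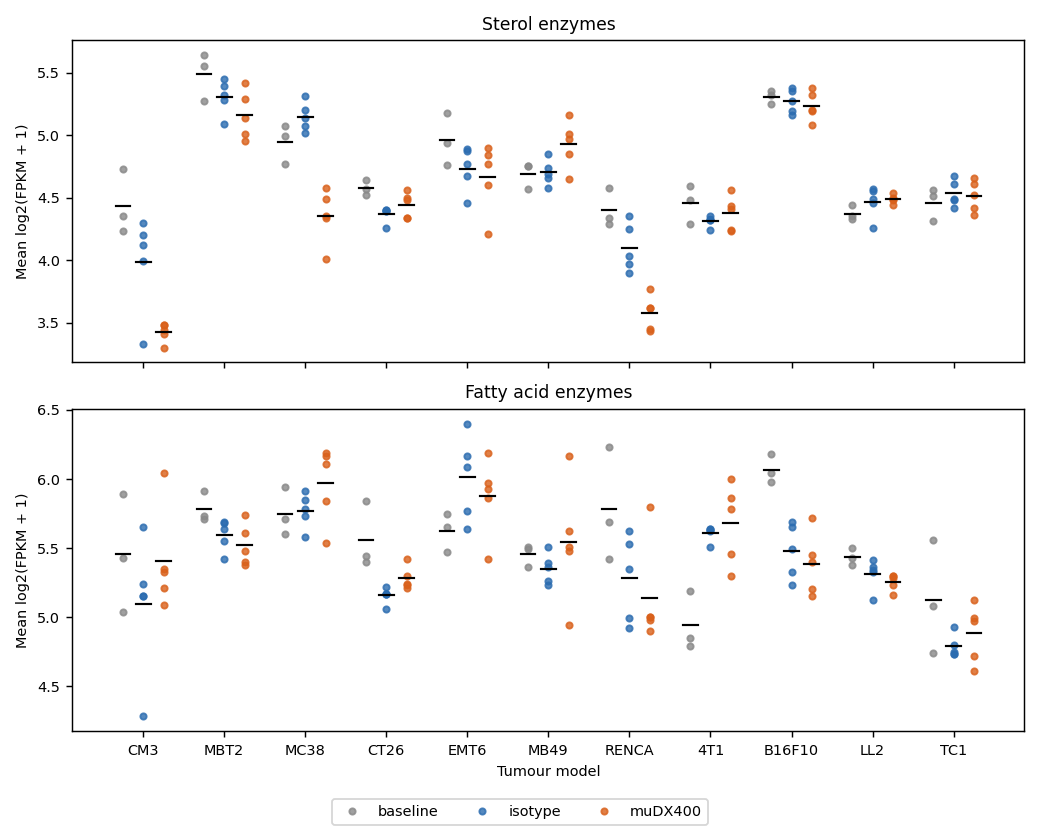
Mean log2(FPKM + 1) of the 18 sterol enzymes (top) and the 6 fatty acid enzymes (bottom) in each tumour, by model and arm. Points are libraries and bars are group means, and in the top panel the muDX400 tumours of MC38 and RENCA lie below all their isotype tumours.

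Growth and time were examined next, as isotype tumours at 8 days against baseline tumours of the same model. Isotype tumours had also received the control antibody and baseline tumours had not, so its part cannot be told apart. Growth is used below as a short name for this comparison. Fatty acid enzymes accounted for the largest single changes, and they went opposite ways in different models. Scd1 rose in 4T1 and fell in B16F10 and LL2. Fasn fell in LL2, MBT2 and TC1.

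In 4T1 Scd1 was 9.12, 9.68 and 16.9 FPKM at baseline and 98.6, 111, 153, 120 and 102 under isotype. The difference of 3.22 ± 0.20 (SE) log2 units had a limma adjusted p of 1.99e-05. The groups were far apart. In B16F10 it was 134, 130 and 193 at baseline and 39.3, 53.5, 33.6, 44.7 and 29.9 under isotype, a difference of -1.90 ± 0.21 with a limma adjusted p of 0.00344. In LL2 it was 56.2, 64.2 and 74.9 against 43.5, 42.2, 35.9, 41.9 and 40.6, a difference of -0.65 ± 0.10 with a limma adjusted p of 0.00162. Adipocyte genes moved the same way. In 4T1 10 of 10 tested rose, with summed levels of 21.5 to 47.5 FPKM at baseline and 247 to 431 under isotype. In B16F10 9 of 10 fell, from 308 to 396 down to 15.5 to 108, and in LL2 9 of 10 fell. In EMT6 8 of 10 rose, and Scd1 went from 67.9, 53.3 and 64.1 to 77.9, 492, 244, 193 and 105 without passing. A gene could pass the filter on low values through the group where it was high, so these adipocyte counts are not read as tests. Over isotype and muDX400 libraries, 4 of the 11 adipocyte genes passed that filter in B16F10 and 5 in LL2. Among all genes, 607 of 13166 rose in 4T1 and 376 of 12867 in EMT6. In B16F10 110 of 11901 fell, and in LL2 1968 of 12423. The part of adipocytes in these differences was not tested.

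**Figure D3:**
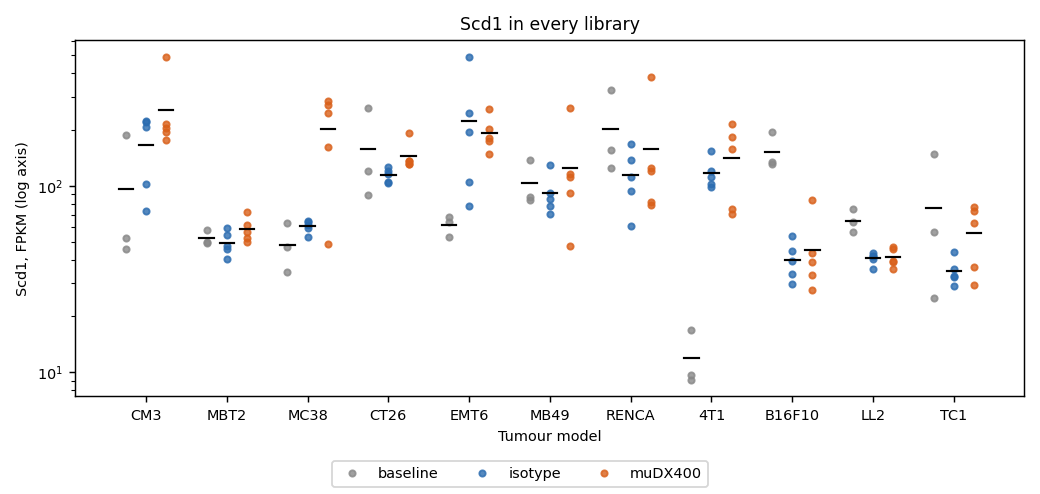
Scd1 in every tumour, in FPKM on a log axis, by model and arm. Points are libraries and bars are group means, and 4T1 rises from 9.12 to 16.9 FPKM at baseline to 98.6 or more under isotype while B16F10 moves the other way.

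Beside Scd1, 4T1 had 1 other member that passed. Idi1 was 34.6, 35.7 and 29.9 FPKM at baseline and 14.3, 27.9, 23.3, 23.6 and 19.9 under isotype, a fall of 0.62 on the log2 scale with a limma adjusted p of 0.0423. These 2 members stood beside 15.3% of 13166 genes. The 4T1 count was 13 without baseline library 3 and 1 without any of 5 other libraries. For those fits the share of all genes is not given, so nothing is read from the counts. In B16F10 the 1 member compared with 0.933% of 11901 genes, and it did not pass without baseline library 1.

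CT26 had 7 members lower and 0 higher, while 19.0% of 12614 genes fell and 23.4% changed in either direction. They were Acat2, Hmgcs1, Pmvk, Mvd, Idi1, Insig1 and Elovl6. Idi1 was 28.7, 25.1 and 20.3 FPKM at baseline and 15.7, 14.9, 17.1, 14.8 and 14.7 under isotype, with a difference of -0.63 ± 0.12 (SE) and a limma adjusted p of 0.00421. Elovl6 had a lowest baseline value of 7.08 and a median of 7.56 against 4.68, 4.93, 5.24, 4.31 and 4.83, a difference of -0.66 ± 0.13 with a limma adjusted p of 0.00531. Insig1, the retention factor, was 43.4, 39.2 and 39.2 against 29.5, 25.6, 29.6, 20.0 and 31.2, with a difference of -0.58 ± 0.14 and a limma adjusted p of 0.0149. None of these groups overlapped. Under median-ratio scaling, which moved the median of all CT26 genes by 0.16, the split was 2 higher and 3 lower. Among all genes that split was 1650 higher and 1550 lower.

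In LL2 8 members rose and 4 fell, while 27.1% of 12423 genes changed. Of the 18 sterol enzymes 5 rose and 1 fell, with a branch median of 0.05 against 0.00 for all genes. Hmgcs1, Idi1, Lss, Msmo1 and Hsd17b7 rose with Insig1, Insig2 and Scd2, and Ebp, Scap, Fasn and Scd1 fell. Hsd17b7, a sterol ketone reductase, was 4.67, 3.98 and 4.62 FPKM at baseline and 8.02, 6.83, 6.52, 7.06 and 6.52 under isotype, a difference of 0.56 ± 0.09 (SE) with a limma adjusted p of 0.00269. Idi1 was 19.7, 17.9 and 19.2 against 38.5, 31.8, 32.9, 31.2 and 17.9, with isotype library 5 at the baseline level and a limma adjusted p of 0.0488. Insig1 was 19.4, 17.6 and 18.3 against 23.4, 26.1, 21.8, 21.5 and 30.1, a difference of 0.39 ± 0.11 with a limma adjusted p of 0.0290. The LL2 count was 20 without isotype library 5, 6 without baseline library 1, and 5 without baseline library 2 or 3. No share of all genes is given for those fits, so nothing is read from the counts.

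In MBT2 Dhcr7, Fasn and Acly fell, 3 members beside 22.4% of 12779 genes. Fasn was 122, 90.9 and 110 FPKM at baseline and at most 70.2 with a median of 65.5 under isotype, a difference of -0.76 ± 0.11 (SE) with a limma adjusted p of 0.00275. Dhcr7, the final reductase for 7-dehydrocholesterol, was 33.9, 28.1 and 33.5 against 25.2, 22.0, 27.3, 25.1 and 26.2, a difference of -0.33 ± 0.09 with a limma adjusted p of 0.0281. Neither pair of groups overlapped. The MBT2 count was 12 without baseline library 2 and 1 without baseline library 1 or 3. Nothing is read from these counts, as the share of all genes in those fits is not given.

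In TC1 the sterol enzymes Ebp and Dhcr7 and the desaturase Scd2 rose, and the fatty acid enzymes Fasn, Acaca and Acly fell, 6 of 30 members beside 37.0% of 13068 genes, a smaller share than among all genes. Ebp was 21.3, 25.9 and 24.4 FPKM at baseline and 33.1, 42.9, 28.7, 32.6 and 32.0 under isotype, a difference of 0.48 ± 0.11 (SE) with a limma adjusted p of 0.00782. Fasn was 39.0, 82.4 and 46.5 against 30.3, 34.1, 35.9, 31.3 and 41.2, a difference of -0.61 ± 0.20 with a limma adjusted p of 0.0328. The Fasn groups overlapped between 39.0 and 41.2. Under median-ratio scaling, which moved the median of all TC1 genes by 0.12, 6 members were higher and 0 lower. Among all genes 2898 were then higher and 2455 lower.

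In CM3, EMT6, MB49, MC38 and RENCA 0 of 30 members passed. The shares of all genes that did were 0.374%, 10.6%, 1.89%, 3.25% and 10% in that order, and 11.5%, 28.5%, 10.9%, 17.2% and 24.8% at an unadjusted p under 0.05. The members at that level were 11, 7, 1, 8 and 8 of 30 in the same order. Their share was below that of all genes in EMT6 and MB49 and close to it in RENCA. In EMT6 the library numbers appeared to pair the 2 arms, a hint from the data that the labels do not give. With the number as a replicate block, over 3 pairs, 13 EMT6 members fell, beside 11.3% of genes. Among them were Mvd (-0.61 ± 0.07) and Hsd17b7 (-0.60 ± 0.07). The block was chosen from these same data and leaves out isotype libraries without a baseline partner, so nothing is read from this count. Without the block, the EMT6 count was 0 in each of 8 fits that left out 1 library. All 8 MC38 members at the unadjusted level were positive. In CM3 the count was 0 also without isotype library 4.

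**Figure D4:**
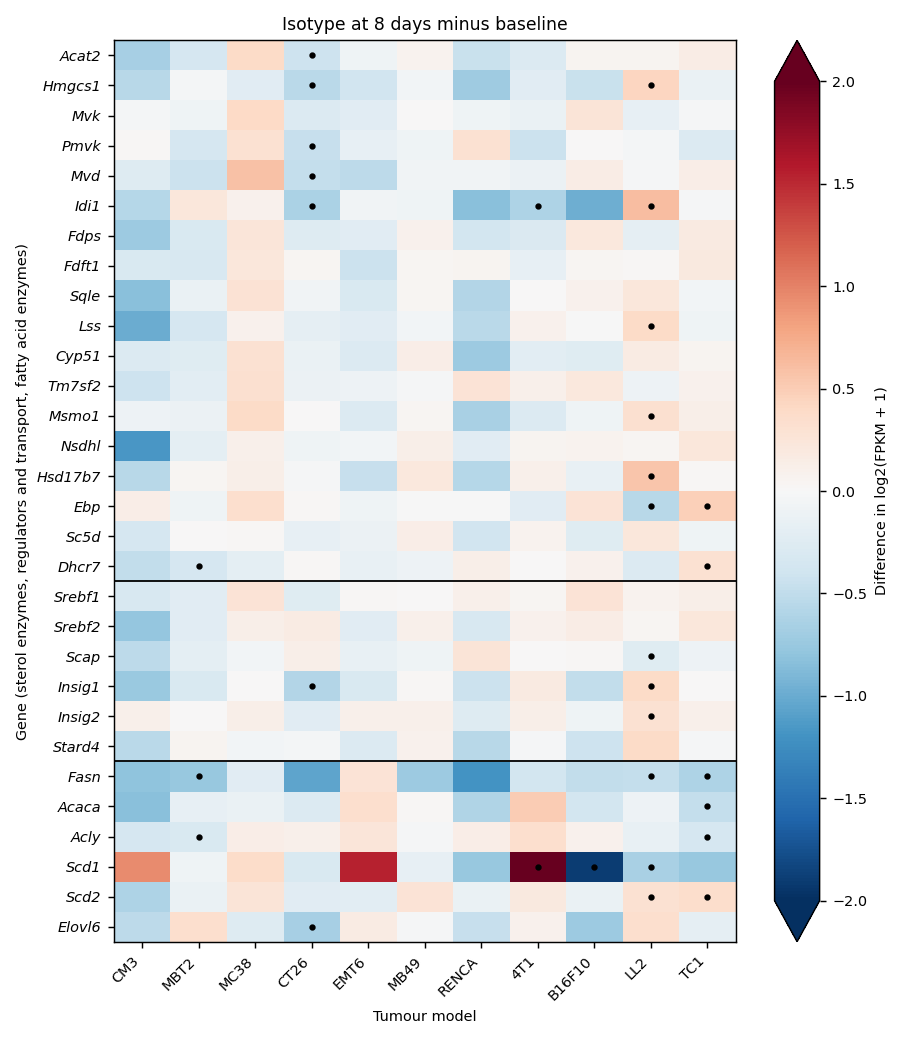
Difference in log2(FPKM + 1) between isotype tumours at 8 days (n = 5) and baseline tumours (n = 3), by gene and model, ordered as in the map of muDX400 differences. Dots mark an adjusted p under 0.05, colours saturate at 2 log2 units, and the Scd1 row holds both the highest value (3.22 in 4T1) and the lowest (-1.90 in B16F10).

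As a mean over the 11 models, 6 members fell from baseline to isotype and 0 rose, while 25.5% of 16879 genes fell and 29.7% changed in either direction. Fasn had the largest mean, -0.59 ± 0.10 (SE) with a limma adjusted p of 3.63e-06, and was negative in 10 of 11 models. The others were Hmgcs1 (-0.26 ± 0.07), Insig1, Acaca, Lss and Acat2. Their share was below that of all genes. Under median-ratio scaling Fasn and Hmgcs1 passed and 4 did not. The count was 2 without CM3, 10 without LL2 and 11 without MC38, and the shares of all genes in those fits are not given. Growth differences varied between models for 18 of 30 members by the F test, and for 46.9% of genes. Without CM3 they did so for 16 members and 48.1% of genes. Scd1 had the smallest adjusted p among members in both, 1.25e-10 and 6.91e-12 with limma.

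How members varied between tumours of the same group was then described, as deviations of log2(FPKM + 1) from the mean of each model and arm, over the 33 baseline, 55 isotype and 55 muDX400 libraries. Libraries share depth, dissection and tissue makeup, and no test was made. The median correlation was 0.37 over 153 pairs of sterol enzymes, 0.43 over 15 pairs of fatty acid enzymes and 0.12 over 108 pairs across the 2 branches. Without CM3 and MC38 these medians were 0.44, 0.40 and 0.23. Sqle (r = 0.85), Acat2 (0.84), Cyp51 (0.83), Fdps (0.80) and Fdft1 (0.80) followed the mean of the other sterol enzymes most closely. Tm7sf2 (-0.00) and Ebp (0.07) did not follow it.

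The 2 desaturases kept different company. Scd1 had r = 0.80 with the adipocyte score (Spearman 0.76, and r = 0.79 without the 2 libraries farthest from the median), and the sign was positive in 11 of 11 models, from 0.59 in B16F10 to 0.92 in RENCA. Fasn had r = 0.66 with that score. Scd2 had r = -0.26 with it and 0.65 with Srebf2 (Spearman 0.61, and 0.61 without the 2 farthest), positive in 11 of 11 models. Fdps had r = 0.66 with Srebf2, positive in 8 of 11 models with -0.74 in LL2, and Sqle had 0.66, positive in 10 of 11. Idi1 had -0.03, from -0.81 in B16F10 to 0.87 in EMT6.

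**Figure D5:**
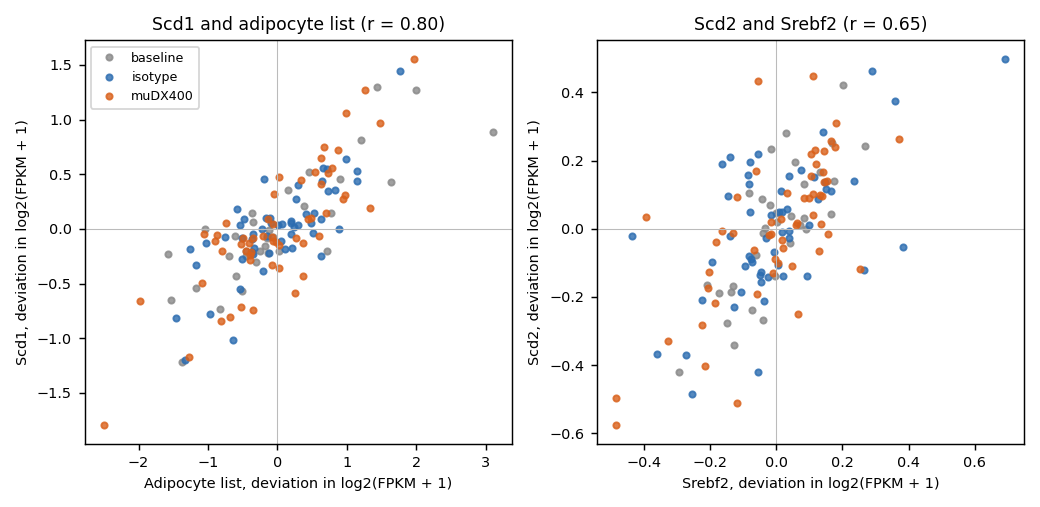
Deviation of each tumour (33 baseline, 55 isotype, 55 muDX400) from its group mean in log2(FPKM + 1), for Scd1 against the adipocyte score (left, r = 0.80) and Scd2 against Srebf2 (right, r = 0.65). Points are libraries coloured by arm, and both clouds rise from lower left to upper right.

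The mean of the sterol enzymes had r = 0.55 with the proliferation score, -0.52 with the leukocyte score, -0.55 with LXR targets and -0.11 with the adipocyte score. Without the 13 CM3 libraries these were 0.38, -0.46, -0.44 and -0.05 over 130. The signs were not shared by all models: proliferation was positive in 7 of 11, from -0.30 in CT26 to 0.92 in CM3. Among 13399 genes outside the set, those most like the sterol mean over the same libraries included Pimreg (r = 0.64), Aacs (0.62), Melk (0.62), Pcyt2 (0.60), Ccnb2 (0.59), Cdc20 (0.59) and Nek2 (0.58). Without CM3 Aacs had 0.68 and ranked first, Melk and Pimreg had 0.50, and Pcyt2, Ccnb2, Cdc20 and Nek2 were no longer among the 10 most alike. Those most like the fatty acid mean were Pcx (0.76), Pnpla3 (0.73), Dgat2 (0.72), Me1 (0.71), Adrb3 (0.70), A530016L24Rik (0.69), Slc36a2 (0.67), Plin1 (0.67), Cdo1 (0.66) and Amy1 (0.66).

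Related genes of the same families as Acat2, Scd1 and Idi1 had low values. The highest value in any library was 2.24 FPKM for Acat3, 2.08 for Scd3, 0.879 for Scd4 and 0.630 for Idi2. The lowest was 7.30 for Acat2, 9.12 for Scd1 and 1.16 for Idi1. How fragments shared by related genes were divided is not stated in the labels.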

How the data were processed

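Total RNA of 33 baseline, 55 isotype and 55 muDX400 tumours was depleted of ribosomal RNA and sequenced as 50 base paired-end reads, per the labels' protocols. The authors deposited a table of FPKM values per gene. Aligner, quantifier, build and annotation: not given in the sources used here. Columns were matched to samples by the sample numbers in the labels, and 0 columns went unused. Symbols came from the gene identifiers, and positions from GENCODE M21 (GRCm38).

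On log2(FPKM + 1), limma 3.58.1 (R 4.3.3) was run with its trend option, and 2-sided p-values were adjusted by Benjamini-Hochberg over every gene tested, at a threshold of 0.05. This scale understates changes of low genes. Genes needed at least 1 FPKM in at least 5 libraries (muDX400 against isotype) or 3 (isotype against baseline), or a mean of 1 in 3 models (class trends). Means over models came from a single fit with a coefficient per model and arm. The labels do not name the animal of each library, so p-values measure the spread between these samples. The fit was tested on simulated data.

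Members, lists and tests were chosen with earlier results of these data known. Genes given by library are the 1 or 2 per branch with the largest difference among those that passed in a model, and the member with the widest isotype range per branch. Msmo1 and Cyp51 in CM3, Scd1 in EMT6 and RENCA, and Acat2 and Srebf2 in RENCA were added after their values were seen. Lists were adipocyte, sebaceous gland, proliferation, leukocyte, macrophage, fibroblast, skeletal muscle and melanocyte genes, other sterol and fatty acid genes, and LXR targets. The 10 genes most like each branch mean, among those with a mean of at least 1 FPKM, were ranked by correlation. Some genes of these lists and ranks are not reported here. Over the mean of the 10 models other than MC38, 3 of 8 macrophage, 3 of 6 fibroblast, 0 of 6 skeletal muscle and 0 of 6 melanocyte genes rose.

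Library numbers appeared to pair isotype with baseline in EMT6 alone, where the 3 same-numbered pairs correlated at 0.164 to 0.311 in their deviations. The pairing is a hint from the data, since the labels do not say what a number marks.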

Additional observations from a re-analysis of the deposited data

Results flagged for a closer look

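A quantity (a branch mean or a gene) was examined in a group of 5 tumours in 106 combinations, which reuse the same tumours and are not independent. In 8 of them 1 tumour lay far from the other 4, where chance gives about 1 in 20. Sterol enzymes in 4T1 isotype library 5 stood at 4.24 in mean log2(FPKM + 1), with the others at 4.32 to 4.35. Sterol enzymes in CT26 isotype library 2 stood at 4.26 log2 units, with the others at 4.39 to 4.40. Sterol regulators and transport in TC1 muDX400 library 4 stood at 4.61 log2 units, with the others at 4.78 to 4.80. Fatty acid enzymes in 4T1 isotype library 5 stood at 5.51 log2 units, with the others at 5.62 to 5.64. Fatty acid enzymes in CM3 muDX400 library 2 stood at 6.04 log2 units, with the others at 5.09 to 5.35. Fatty acid enzymes in LL2 isotype library 5 stood at 5.12 log2 units, with the others at 5.33 to 5.41. Fatty acid enzymes in RENCA muDX400 library 4 stood at 5.80 log2 units, with the others at 4.90 to 5.0. Scd1 in B16F10 muDX400 library 5 stood at 83.6 FPKM, with the others at 27.7 to 43.8.

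The difference between muDX400 and isotype varied between the 10 models other than MC38, by a limma F test with these adjusted p-values: Acat2 (0.000555), Mvk (0.00856), Pmvk (0.00163), Mvd (0.0119), Fdps (1.20e-05), Fdft1 (0.000118), Sqle (0.00249), Cyp51 (0.000166), Msmo1 (6.74e-05), Ebp (0.00525) and Srebf2 (0.0374). The difference between isotype and baseline varied over all 11 models for Acat2 (0.00286), Pmvk (0.0401), Mvd (0.0267), Sqle (0.00312), Lss (0.00153), Nsdhl (0.00229), Hsd17b7 (0.000720), Ebp (0.0193), Dhcr7 (0.0107), Srebf1 (0.0178), Srebf2 (0.000428), Scap (0.00982), Insig1 (0.0365), Stard4 (0.0472), Acaca (0.0209), Acly (0.000313), Scd1 (1.25e-10) and Scd2 (0.00548), as limma adjusted p-values.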

How the results depend on the processing

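Counts of members that passed are given here without the share of all genes under the same setting. They show only how far a count moved, and nothing about the members is read from them. Leaving out 1 library at a time, for muDX400 against isotype they ranged from 0 to 13 in CM3, 0 to 4 in MBT2 and 1 to 4 in RENCA, 20 to 24 in MC38, and 0 in the other 7. For isotype against baseline they ranged from 1 to 13 in 4T1, 0 to 1 in B16F10 and RENCA, 6 to 10 in CT26, 5 to 20 in LL2, 1 to 12 in MBT2 and 5 to 6 in TC1, and were 0 in the other 4. In fits without 1 model, or without isotype library 4 of CM3, the muDX400 mean gave 0 to 9. The 9 was reached without that library, which was chosen after seeing the data. The growth mean gave 2 to 11 in such fits. With a spread shared over all models, the muDX400 counts were 15 in CM3 (2 higher, 13 lower) and 13 in RENCA, and the growth counts 15 in CM3, 1 in CT26, 1 in EMT6, 2 in LL2, 0 in MBT2, 9 in RENCA and 2 in TC1. With no filter on low values, they were 1 for RENCA muDX400, 1 for 4T1 growth, 2 for TC1 growth and 1 for the muDX400 mean. With the replicate block they were 0 for RENCA muDX400 and, for growth, 1 in 4T1, 0 in B16F10, 0 in CT26, 13 in EMT6, 14 in MBT2 and 10 for the mean. The numbers appeared to pair the samples in EMT6 only, which the labels do not state. Median-ratio scaling gave 2 for the growth mean and moved the median of all genes by up to 0.20. The cause of these shifts was not tested. Of the 65 differences that passed, 0 changed sign under any setting run. Under other settings they no longer passed in 73 refits and still passed in 242. With a library or model left out they no longer passed in 92 refits and still passed in 512. The log2(FPKM + 0.1) scale moved no count by over 1.5 times, and both class trends stayed at 0. CCAAT counts in 250 and 300 bases were both 14 for sterol enzymes, but 1 and 2 for fatty acid enzymes. Depth limits the detection of members little here, since 3 member values lay below 1 FPKM.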
